A study of Mus musculus with 9 samples.

Results

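The 8 genes described here encode the enzymes that write DNA methylation (Dnmt1, Dnmt3a, Dnmt3b), the enzymes that begin its removal (Tet1, Tet2, Tet3), the maintenance cofactor Uhrf1 and the methyl-CpG reader Mbd2. They were taken by symbol from the count table, where all 8 of 26683 genes were found, and all 8 were among the 12738 genes with enough reads to be tested. RNA was taken from regulatory T cells (Treg cells) of the spleen, isolated from each mouse as cells positive for CD4 and for Foxp3, the lineage-defining transcription factor. The 5 control mice (WT) were B6N.Foxp3YFP-Cre, and the 4 knockout mice (KO) were EsrrgNf/f.Foxp3YFP-Cre, that is, the same Foxp3-driven Cre recombinase (with a fluorescent reporter, YFP) and a floxed gene for the estrogen-related receptor gamma, Esrrg. All mice were female and 2 to 3 months old per the labels, and each gave 1 library. Cre driven by Foxp3 is active in Treg cells, and both groups carry it, so WT is a control for the reporter and Cre. The library names in brackets also differ by group (B6-N-Treg and Err-Treg), and colony and genotype cannot be told apart.

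DNA methylation in mammals sits mainly on cytosines of CpG dinucleotides. Dnmt3a and Dnmt3b place it on unmethylated DNA, whereas Dnmt1, guided by Uhrf1 to hemimethylated CpGs behind the replication fork, copies it to the daughter strand. Tet enzymes oxidise methylated cytosine, which leads to demethylation, and Mbd2 binds methylated CpGs and recruits the NuRD repressor complex. In Treg cells, stable Foxp3 expression is known to depend on demethylation of an intronic enhancer of Foxp3, in which Tet2 and Tet3 take part, and Uhrf1 is known to be needed for the expansion and function of these cells.

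The libraries held 15269014 to 17425634 counts. The targeted gene gave no check of the labels, since Esrrg had 0 counts in every library, which over all libraries together allows up to 0.0206 CPM. CPM are counts-per-million, that is, counts scaled to the size of each library, and this limit covers counting error alone. The defining Treg markers Cd4, Cd3e, Foxp3, Il2ra, Ctla4, Ikzf2 and Tnfrsf18 summed to 4382 to 4633 CPM in WT and 4340 to 4673 CPM in KO. The library labelled KO 4 stood apart, with 27 counts of the X-inactivation RNA Xist against 27355 to 35693 in the other 8 libraries. That count is at odds with the female label, while of the Y-linked genes Eif2s3y and Uty had 1 count each and Ddx3y and Kdm5d 0 in this library, so the identity of KO 4 is in doubt. WT 2, also labelled female, had the most Y-linked counts of any library, 16 of Eif2s3y and 7 of Ddx3y. KO 1 and KO 4 also held the most transcript of the antibody joining chain gene Jchain, a plasma cell marker, at 133 and 461 CPM against 14.03 to 62.7 CPM in WT and 30.2 and 52.0 CPM in KO 2 and KO 3. The 5 plasma cell markers together summed to 119 to 168 CPM in WT and 150 to 614 CPM in KO, and 1 of the 4 tested passed, Xbp1 (log2 fold change 0.25, edgeR adjusted p = 0.0324). B cell markers summed to 18.6 to 24.4 CPM in WT and 19.8 to 33.5 CPM in KO, and those of CD8 T cells to 9.77 to 13.5 CPM and 11.8 to 13.7 CPM, nearly all of it Cd8b1, since Cd8a lay at 0.63 CPM or less everywhere. Neutrophil and myeloid markers were also highest in KO 1 or KO 4. The neutrophil gene S100a8 was at 3.36 and 6.56 CPM in KO 1 and KO 4 and at 0.53 CPM or less elsewhere, and the 5 neutrophil markers summed to 0.24 to 4.21 CPM in WT and 0.45 to 23.2 CPM in KO. Myeloid markers summed to 56.2 to 106 CPM in WT and 65.9 to 145 CPM in KO. Their mean log2 CPM was highest in KO 4 (4.429), while WT 1 (3.999) lay above KO 1 (3.905). High myeloid transcript was thus not confined to KO 1 and KO 4. WT 1 was left out only in a fit without that single library. The value without KO 1 and KO 4 is given where the log2 fold change of a gene refitted without them moved by over 1.5 times or turned, and for Tet1. The list genes Uhrf2, Mbd4 and Xbp1, and E2f2, are given with all libraries only. In bulk RNA, fewer cells of a type and less RNA per cell cannot be told apart.

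Promoter sequences are shown for Dnmt1 and Uhrf1, because these transcripts followed each other across libraries, and for Tet1, the member that passed the test. Each is a RefSeq window (GRCm38.p6) of 300 bases, 250 before and 50 after an annotated start, read 5′ to 3′ on the gene's own strand. Capitals mark matches to an E2F-type motif (TTTGGCGC, TTTCGCGC, TTTGCCGC or TTTCCCGC, either strand). E2F factors are known drivers of S phase genes. No marked matches overlapped.
Dnmt1 (chr9:20952574-20952873, minus strand): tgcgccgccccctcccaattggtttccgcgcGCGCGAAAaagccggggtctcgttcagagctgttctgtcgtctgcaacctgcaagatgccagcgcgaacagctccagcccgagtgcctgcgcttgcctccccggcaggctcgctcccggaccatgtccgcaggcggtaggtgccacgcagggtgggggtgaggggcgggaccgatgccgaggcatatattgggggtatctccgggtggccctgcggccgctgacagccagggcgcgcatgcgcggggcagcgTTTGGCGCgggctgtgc
Uhrf1 (chr17:56304063-56304362, plus strand): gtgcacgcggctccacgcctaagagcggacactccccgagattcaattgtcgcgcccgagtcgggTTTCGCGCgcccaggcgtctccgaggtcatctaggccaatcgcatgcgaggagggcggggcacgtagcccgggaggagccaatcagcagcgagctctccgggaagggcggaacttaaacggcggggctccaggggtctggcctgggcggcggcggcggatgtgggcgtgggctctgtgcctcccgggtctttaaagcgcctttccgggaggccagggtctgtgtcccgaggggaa
Tet1 (chr10:62887275-62887574, minus strand): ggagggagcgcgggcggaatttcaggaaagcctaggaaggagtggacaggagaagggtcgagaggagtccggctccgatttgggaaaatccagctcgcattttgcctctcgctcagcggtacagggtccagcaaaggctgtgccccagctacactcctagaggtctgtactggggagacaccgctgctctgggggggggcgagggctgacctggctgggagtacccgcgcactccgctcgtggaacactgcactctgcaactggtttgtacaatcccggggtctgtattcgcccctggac

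The Dnmt1 window held 33 CpGs and 2 E2F-type matches, TTTGGCGC after the start site and TTTCGCGC on the other strand before it, and the Uhrf1 window 33 CpGs and 1 match, TTTCGCGC before the start site. The Tet1 window held 17 CpGs and no match. The table gave 12 windows for 7 of the members. Across those 12, an E2F-type match was found in these Dnmt1 and Uhrf1 windows and in no other. For Dnmt1 and Uhrf1 the windows shown are thus the ones with a match. Windows at other annotated starts of Dnmt1 (2 and 12 CpGs) and of Uhrf1 (12 CpGs) held none. The element TCAAGGTCA, to which estrogen-related receptors bind, matched none of the 12. Over all 32851 windows, 2.26% held an E2F-type match and 0.423% the receptor element. Among the 2812 windows with at least 33 CpGs these shares were 4.27% and 0.0711%. A match is a string of letters and does not show that a factor binds.

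The level of each gene was compared per kilobase of its longest annotated coding transcript (GENCODE M21), since longer transcripts collect more reads. On this scale Mbd2 was the most abundant, at 90.6 ± 2.31 CPM per kilobase in WT (SD, n = 5). Dnmt1 (34.6 ± 2.30) and Tet3 (32.8 ± 3.68) followed and did not differ beyond their spread in WT on this scale. Dnmt3a stood at 20.0 ± 0.42, Tet2 at 10.8 ± 0.889 and Uhrf1 at 7.55 ± 2.52 CPM per kilobase. Dnmt3b, at 3.71 ± 0.228, and Tet1, at 2.14 ± 0.130, were the lowest. The same order held in KO except that Uhrf1 (12.5 ± 3.97, n = 4) lay above Tet2 (10.6 ± 0.144), within the spread of Uhrf1. Dnmt1 (40.8 ± 3.49) and Tet3 (30.4 ± 3.30) lay further apart in KO than in WT. With the summed length of all annotated exons in place of the longest transcript, Uhrf1 (6.35) also lay above Tet2 (5.89) in WT. On that length Dnmt1 (27.6) lay further above Tet3 (21.4) in WT.

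**Figure D1:**
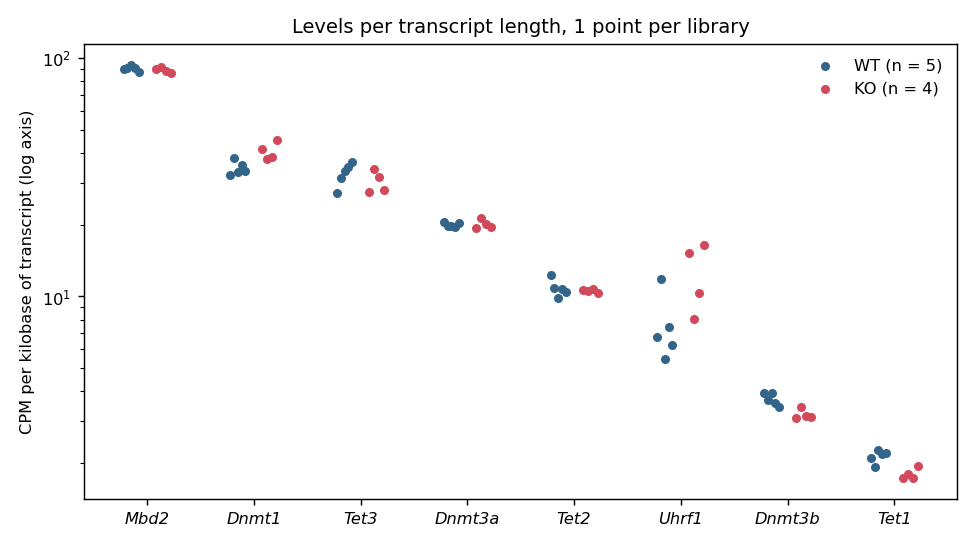
Level of each gene in CPM per kilobase of its longest coding transcript (log axis), with 1 point per library for WT (n = 5) and KO (n = 4). Mbd2 was at 90.6 and Tet1 at 2.14 CPM per kilobase on average in WT, and Uhrf1 had the widest spread between libraries of the 8 genes.

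Within each enzyme family 1 transcript held most of the level. Of the summed level per kilobase of the 3 Tet genes in WT, Tet3 held 71.5% ± 3.59 (SD, n = 5), Tet2 23.8% ± 3.44 and Tet1 4.69% ± 0.305. In KO these shares were 70.9% ± 2.17, 24.8% ± 1.81 and 4.25% ± 0.452 (SD, n = 4). Of the 3 Dnmt genes in WT, Dnmt1 held 59.3% ± 2.00, Dnmt3a 34.3% ± 1.65 and Dnmt3b 6.37% ± 0.511. In KO, Dnmt1 held 63.6% ± 2.78, Dnmt3a 31.4% ± 2.39 and Dnmt3b 5.01% ± 0.397. Dnmt3l, the regulatory relative without catalytic activity, had 1 count over all 9 libraries.

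The comparison of KO with WT asks whether these transcripts differ when Cre is expressed with floxed Esrrg. Of the 8 genes, 1 passed an adjusted p of 0.05, Tet1, which was lower in KO (edgeR quasi-likelihood test, Benjamini-Hochberg over all tested genes). Among all tested genes 3.28% passed, 1.4% higher and 1.88% lower in KO, so a single call among 8 genes is not read as a result about the list. At an unadjusted p of 0.05, 4 of the 8 genes passed (Dnmt1, Dnmt3b, Tet1 and Uhrf1) against 21.6% of all tested genes. WT and KO values overlapped for all 8, whereas 9.07% of tested genes showed no overlap. The median log2 fold change (KO over WT) was -0.03 for the 8 genes and 0.0052 for all tested genes. Nothing in the labels says whether mice shared litters or sort days, so p-values measure the spread between these mice.

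**Figure D2:**
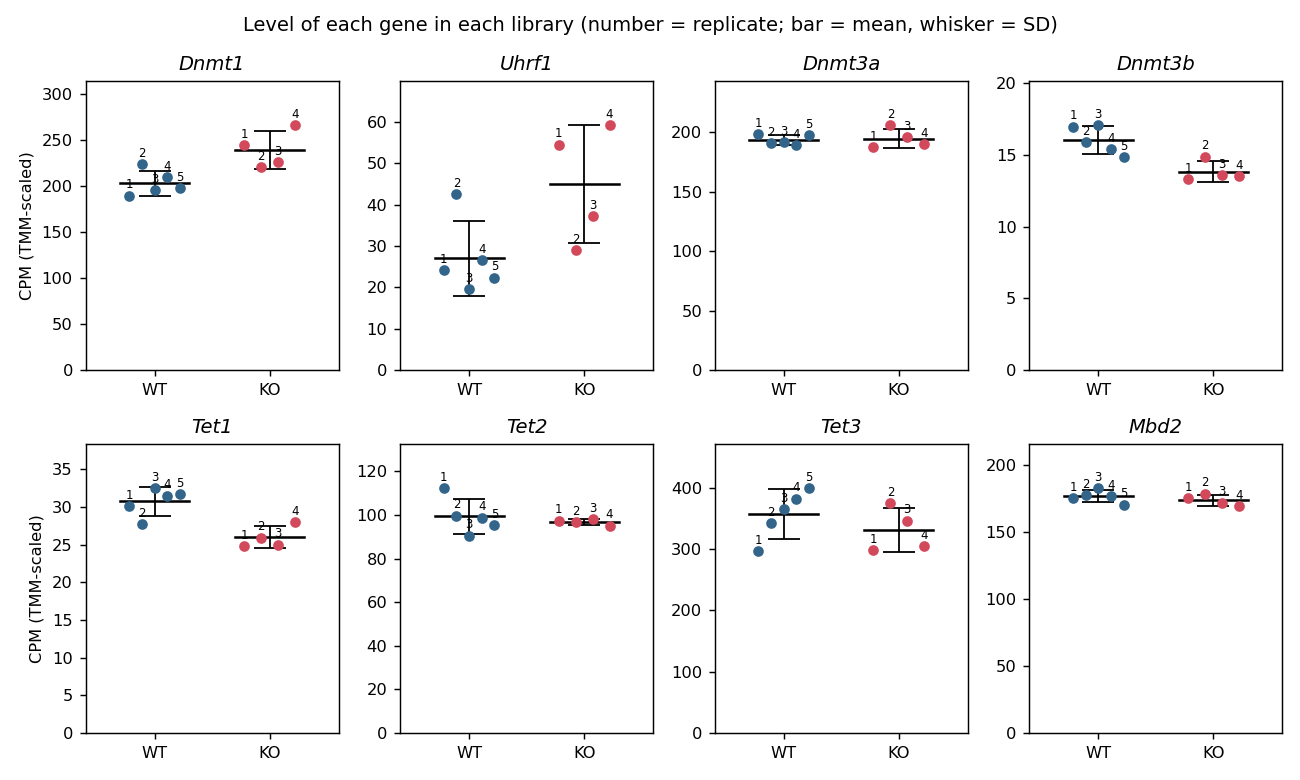
CPM of each of the 8 genes in each library, with axes starting at 0, numbered by replicate; bars are means and whiskers SD (WT n = 5, KO n = 4). Tet1 was 24.85 to 28.0 CPM in KO against 27.8 to 32.5 CPM in WT, and for Uhrf1 the libraries KO 1, KO 4 and WT 2 lay above the rest.

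Among the erasers, Tet1 (mm10, chromosome 10, 62804570 to 62908996, minus strand) showed the change that passed. It was at 30.2, 27.8, 32.5, 31.5 and 31.7 CPM in WT 1 to 5 and at 24.85, 25.9, 25.01 and 28.0 CPM in KO 1 to 4. The groups overlapped only through WT 2, the lowest WT library, and KO 4, the highest KO library, which differed by little. The log2 fold change was -0.24 ± 0.06 (SE, n = 5 and 4), or -15.6%, with edgeR adjusted p = 0.0485. This call sat at the threshold: it passed in 1 of the 9 fits that left out a single library, the one without WT 2 (adjusted p = 0.0234), and the adjusted p reached 0.128 without WT 3. Without KO 1 and KO 4 the log2 fold change was -0.27 (adjusted p = 0.125), without KO 4 alone it was -0.29 (adjusted p = 0.0674), and without KO 1 alone -0.22 (adjusted p = 0.102). The counts behind it ran from 381 to 539 per library.

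Tet2 (chromosome 3, 133463679 to 133545139, minus strand) and Tet3 (chromosome 6, 83362373 to 83459084, minus strand) are the family members known to act on the Foxp3 enhancer. Tet2 was at 112, 99.7, 90.5, 98.8 and 95.4 CPM in WT 1 to 5 and at 97.5, 96.8, 98.2 and 95.1 CPM in KO 1 to 4. The KO libraries lay inside the WT range, and WT 1 was the highest. The log2 fold change was -0.04 (95% interval -0.15 to 0.08, edgeR adjusted p = 0.733). Tet3 varied more, at 296, 343, 365, 382 and 399.95 CPM in WT 1 to 5 and 299, 375, 346 and 304 CPM in KO 1 to 4. WT 1 was the lowest library of all, and KO 1 and KO 4 lay near it, so the groups overlapped over most of their range. The log2 fold change of Tet3 was -0.11 (95% interval -0.32 to 0.10, edgeR adjusted p = 0.538), and 0.01 without KO 1 and KO 4. With a single library left out it ran from -0.17 (without KO 2, and without WT 1) to -0.07 (without KO 1).

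Among the de novo writers, neither gene passed, and Dnmt3a was nearly constant. Dnmt3a (chromosome 12, 3806007 to 3914443, plus strand) was at 198, 191, 192, 189 and 198 CPM in WT 1 to 5 and 187, 206, 196 and 190 CPM in KO 1 to 4. The highest library, KO 2, and the lowest, KO 1, were both KO, with all WT libraries between them. Its log2 fold change was 0.0077 (95% interval -0.07 to 0.09, edgeR adjusted p = 0.929), and 0.05 without KO 1 and KO 4. Dnmt3b (chromosome 2, 153649450 to 153687730, plus strand) was at 17.0, 15.9, 17.1, 15.4 and 14.8 CPM in WT 1 to 5 and 13.3, 14.9, 13.6 and 13.6 CPM in KO 1 to 4. The groups met at WT 5 and KO 2, and the other KO libraries lay below every WT library. For Dnmt3b it was -0.21 ± 0.07 (SE, n = 5 and 4, edgeR adjusted p = 0.126), with 207 to 283 counts per library. It ranged from -0.25 to -0.17 over the other settings tried and passed in none of them.

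The maintenance pair, Dnmt1 and Uhrf1, had higher means in KO and did not pass. Dnmt1 (chromosome 9, 20907209 to 20959888, minus strand), the maintenance methyltransferase, was at 190, 224, 195, 209 and 198 CPM in WT 1 to 5 and 244, 221, 226 and 266 CPM in KO 1 to 4. WT 2 overlapped KO 2, and the other WT libraries lay below all KO libraries. Dnmt1 had a log2 fold change of 0.24 ± 0.06 (SE, n = 5 and 4, edgeR adjusted p = 0.0551), and 0.14 (adjusted p = 0.332) without KO 1 and KO 4. It passed by DESeq2 (adjusted p = 0.0127). By edgeR it passed without WT 2 (adjusted p = 0.0271), without KO 2 (0.0355) and with the bracketed library number added to the model (0.0390). Over the edgeR fits without a single library the adjusted p ran up to 0.168, without KO 4, where the log2 fold change was 0.18. Uhrf1 (chromosome 17, 56303321 to 56323486, plus strand) was at 24.2, 42.6, 19.6, 26.6 and 22.4 CPM in WT 1 to 5 and 54.5, 29.0, 37.2 and 59.2 CPM in KO 1 to 4. KO 1 and KO 4 were the highest and WT 2 came next, above KO 2 and KO 3. The log2 fold change of Uhrf1 was the largest of the 8, at 0.73 ± 0.29 (SE, n = 5 and 4, edgeR adjusted p = 0.203), and it was 0.29 (adjusted p = 0.764) without KO 1 and KO 4. Without WT 2 it was 0.96 (adjusted p = 0.0724), and without all of KO 1, KO 4 and WT 2 it was 0.51 (adjusted p = 0.0917). Uhrf1 also varied most within groups, by 33.4% of its mean in WT and 31.7% in KO (coefficient of variation), against 2.10% to 11.2% in WT for the other 7 genes.

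Mbd2, the reader (chromosome 18, 70568189 to 70626131, plus strand), was as even as Dnmt3a. It was at 176, 178, 183, 177 and 171 CPM in WT 1 to 5 and 176, 179, 172 and 169 CPM in KO 1 to 4. The groups overlapped across nearly all of the range. Mbd2 had a log2 fold change of -0.02 (95% interval -0.10 to 0.05, edgeR adjusted p = 0.724), and -0.01 without KO 1 and KO 4.

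Transcripts that overlap these genes had few counts of their own. The antisense transcripts Dnmt3aos and Dnmt3bos had at most 1 and 2 counts in any library, and the transcript B230319C09Rik, which overlaps Tet3 on the other strand, at most 3. Tet2 also overlaps the antisense model Gm42567 and Tet1 and Tet3 overlap further gene models, which were not analysed here. Counts are per gene, so isoforms such as the short and long forms of Dnmt3a or Tet1 cannot be told apart.

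Uhrf1 and Dnmt1 tracked the expression of replication genes from library to library. The S phase level was the mean log2 CPM of 14 genes (Mcm2 to Mcm7 of the replicative helicase, Rrm1, Rrm2, Tyms, Tk1, Cdc6, Cdt1, Cdc45 and Gins2), and the mitosis level that of 12 genes such as Mki67 and Top2a. The S phase level was 4.98, 5.46, 4.83, 5.00 and 4.90 in WT 1 to 5 and 5.68, 5.14, 5.24 and 5.76 in KO 1 to 4. Uhrf1 ranked the 9 libraries exactly as this level did, from WT 3, the lowest, to KO 4, the highest. Pearson's r was 0.992 (exact permutation p = 2.76e-06, the smallest that the 362880 orderings of 9 libraries can give, adjusted p = 1.1e-05 over 4 relations) and Spearman's rho was 1.0 (exact permutation p = 5.51e-06, adjusted p = 2.2e-05). Without KO 1 and KO 4, the libraries farthest from the median, r was 0.981 over 7 libraries (exact permutation p = 0.000198). After subtracting each group's mean, so that genotype plays no part, r was 0.986.

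Dnmt1 followed the same levels somewhat less closely. Against the S phase level r was 0.935 (exact permutation p = 0.000132, adjusted p = 0.000132) and rho 0.933 (exact permutation p = 0.00075, adjusted p = 0.00075). Against the mitosis level r was 0.95 (exact permutation p = 4.13e-05, adjusted p = 5.51e-05) and rho 0.967 (exact permutation p = 0.000165, adjusted p = 0.00022). Without KO 1 and KO 4, r was 0.826 for S phase (exact permutation p = 0.0196) and 0.844 for mitosis (exact permutation p = 0.00873). After subtracting each group's mean, r was 0.901 for S phase and 0.954 for mitosis. Uhrf1 against the mitosis level gave r = 0.982 (exact permutation p = 8.27e-06, adjusted p = 1.65e-05) and rho = 0.983 (exact permutation p = 4.96e-05, adjusted p = 9.92e-05), and r = 0.963 without KO 1 and KO 4 (exact permutation p = 0.000595). Dividing cells are known to express Uhrf1, Dnmt1 and these genes together, and both genes were chosen for that reason. Both levels were highest in KO 4, KO 1 and WT 2, so these relations are not independent of each other. Each level is relative to all other RNA in its library. The labels name no batch within which these relations could be repeated.

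**Figure D3:**
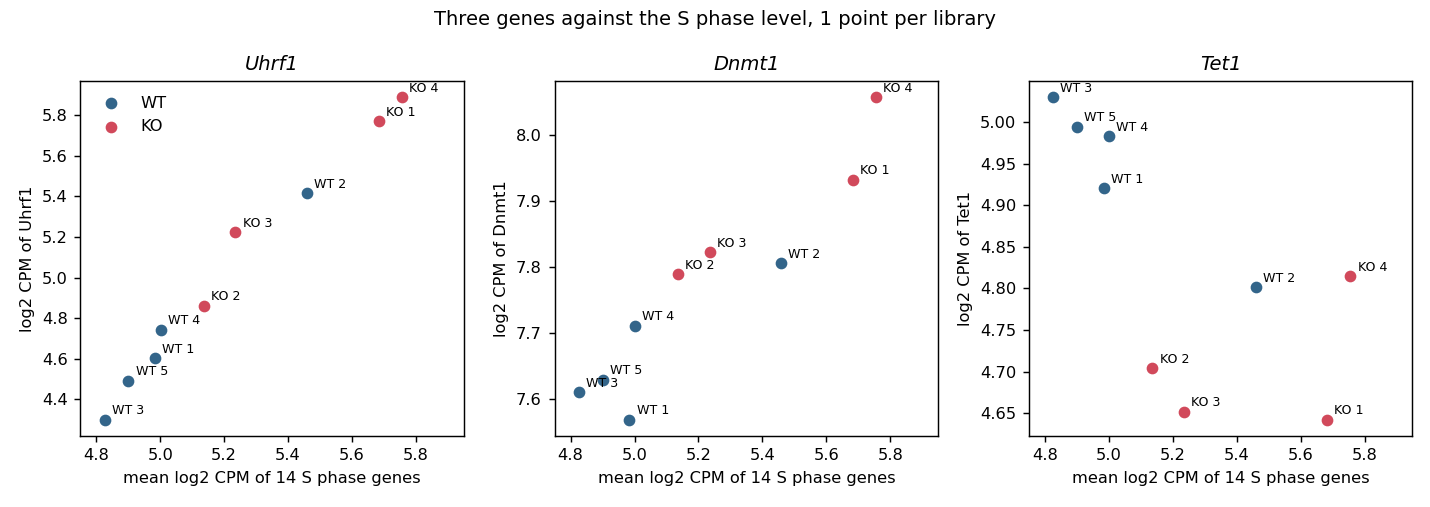
Log2 CPM of Uhrf1, Dnmt1 and Tet1 in each library against the mean log2 CPM of 14 S phase genes, with 1 point per library (5 WT, 4 KO). Uhrf1 follows the same order as the S phase level from WT 3 to KO 4, Dnmt1 follows with r = 0.935, and for Tet1 the highest KO library, KO 4, has the highest S phase level (5.76), while the lowest WT library, WT 2, has the highest S phase level in WT (5.46).

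The proliferation genes themselves showed the same division of libraries without a call. The log2 fold change was above 0 for all 14 S phase genes (median 0.35), against 51.5% of all tested genes. Of the 14, 0 passed by edgeR or by limma-voom, against 3.28% and 2.72% of all tested genes. By DESeq2 3 passed, against 6.99% of the genes to which it gave an adjusted p. At an unadjusted p of 0.05 by edgeR 10 passed, against 21.6%. The smallest p belonged to Mcm4, a helicase subunit gene (0.27, edgeR adjusted p = 0.0613), and Tyms, encoding thymidylate synthase (0.60, edgeR adjusted p = 0.0715). Without KO 1 and KO 4 these were 0.16 (adjusted p = 0.338) and 0.29 (adjusted p = 0.337). It was above 0 for all 12 mitosis genes too (median 1.015), and 0 passed by edgeR, limma-voom or DESeq2, with 4 at an unadjusted p of 0.05. Top2a, a topoisomerase gene, had a log2 fold change of 0.998 (edgeR adjusted p = 0.186) and the proliferation marker gene Mki67 one of 0.91 (edgeR adjusted p = 0.218). Without KO 1 and KO 4 these values were 0.32 and 0.21. The mean log2 CPM of the tested plasma cell markers was also highest in KO 1 and KO 4, at 4.73 and 5.73. In WT 2 it was 3.81, with Jchain at 24.01 CPM and Uhrf1 at 42.6 CPM. Xbp1, the plasma cell marker that passed, differed from this pattern. It was at 91.0, 97.2, 92.4 and 112 CPM in KO 1 to 4 and at 79.8 to 85.1 CPM in WT. The part of plasma cell markers in the levels of Uhrf1 and Dnmt1 was not tested.

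The genes most like each member across libraries, after the group means were taken out, were found among 9840 genes with a mean of at least 5 CPM, and they describe these 9 libraries only. For Uhrf1 they were Rad54l, a recombination repair gene, and Kif14, a mitotic kinesin gene (r = 0.992 and 0.989, n = 9 libraries). For Dnmt1 they were Casc5, a kinetochore gene, and E2f2, an E2F transcription factor gene (r = 0.978 and 0.976). E2f2 itself passed the test, higher in KO (log2 fold change 0.26, edgeR adjusted p = 0.046). Uhrf1 and Dnmt1 had r = 0.904 with each other, while Dnmt1 and Dnmt3a had r = -0.738. Tet3 was closest to Fam63b and Rrnad1 (0.986 and 0.984), Dnmt3a to the GTPase regulator gene Sipa1 and to Stat6, a signal transducer of interleukin-4 (0.971 and 0.966), and Dnmt3b to Ythdc1, a reader of methylated RNA, and Ssbp2 (0.973 and 0.960). Tet2 was closest to Fam107b and Selk (0.965 and 0.949), Tet1 to Ccdc132 and Pgam5 (0.922 and 0.917), and Mbd2 to Rbx1, a ubiquitin ligase subunit gene, and Strn3 (0.914 and 0.888). Uhrf1 had 216 genes with r above 0.9, and Mbd2 1. These genes were chosen for the highest of many correlations, so no p is given.

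Around these members, 105 further genes in 12 lists of partners, cofactors, targets and proliferation genes are reported. Of these, 0 passed by edgeR, against 3.28% of all tested genes, and 0 by limma-voom, against 2.72%. By DESeq2 7 passed, against 6.99% of the genes to which it gave an adjusted p, and 33 had an unadjusted p under 0.05 by edgeR, against 21.6%. The median log2 fold change was 0.03, and WT and KO did not overlap for 8 of the 105, against 9.07% of all tested genes. When a single library was left out, edgeR called 0 to 8 of them, the 8 without WT 2.

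**Figure D4:**
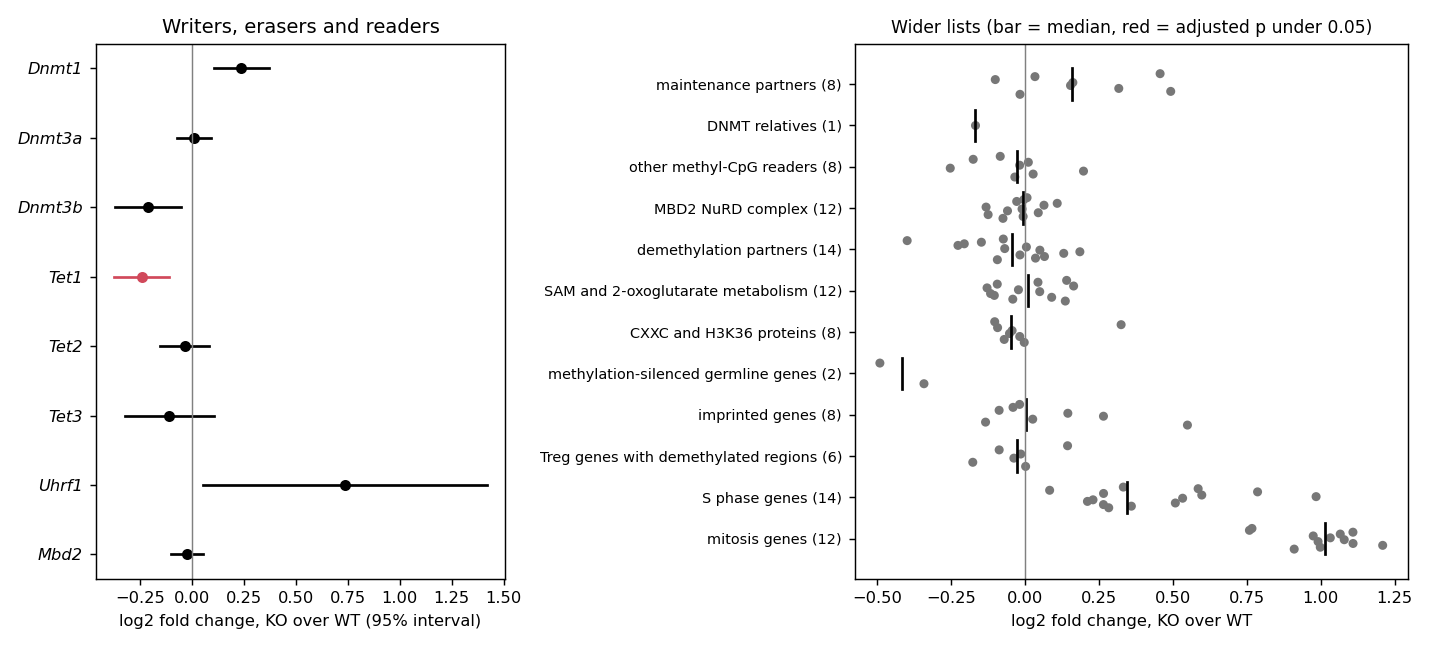
Left, log2 fold change (KO over WT) of the 8 genes with 95% intervals; right, log2 fold changes of the tested genes of 12 wider lists, 1 point per gene, with the number tested in brackets and the list median as a bar. Genes past an adjusted p of 0.05 are red. Tet1 is the gene in red, in the left panel, and the S phase and mitosis lists lie wholly to the right of 0.

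The list labelled other methyl-CpG readers held genes of the Mbd family and zinc finger genes. Membership of the list does not mean that each protein binds methylated CpGs. Values lay on both sides of 0. Of the 8 genes reported (Mbd1, Mbd3 to Mbd6, Zbtb33, Zbtb4 and Zbtb38), 0 passed by edgeR or limma-voom, 2 passed by DESeq2 and 3 had an unadjusted p under 0.05, with a median of -0.03 and 3 positive values. Mbd5 had the smallest p, at 41.4, 49.2, 50.5, 48.6 and 52.9 CPM in WT 1 to 5 and 41.4, 39.7, 40.3 and 41.4 CPM in KO 1 to 4. WT 1 lay among the KO libraries and the other WT libraries above them. Its log2 fold change was -0.25 ± 0.06 (SE, n = 5 and 4, edgeR adjusted p = 0.0522), and -0.30 without WT 1 (adjusted p = 0.00969). Zbtb4, a zinc finger gene, was at 160 ± 8.93 CPM in WT and 142 ± 7.04 in KO (SD, n = 5 and 4), with no overlap (-0.17, edgeR adjusted p = 0.0715, and 0.0476 without WT 2). Mbd4, a glycosylase that repairs deaminated methylcytosine, was at 12.7 ± 0.783 and 14.5 ± 0.284 CPM, also with no overlap (0.20, edgeR adjusted p = 0.148), and was named after its values were seen.

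The NuRD complex, through which Mbd2 represses, had a median near 0. Of its 12 genes 0 passed by edgeR or limma-voom and 1 by DESeq2, with 3 at an unadjusted p of 0.05 and a median of -0.0075. Gatad2b, which encodes a subunit that binds Mbd2, had the smallest p, at 208 ± 3.89 CPM in WT and 190 ± 8.42 in KO (SD, n = 5 and 4; log2 fold change -0.13, edgeR adjusted p = 0.0791). Mta1, another subunit gene, had -0.12 (edgeR adjusted p = 0.139).

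Partners of maintenance methylation gave no call. Of 8 genes 6 were positive, with a median of 0.16, while 0 passed by edgeR, DESeq2 or limma-voom and 3 had an unadjusted p under 0.05. Cdca7, which encodes a nucleosome remodelling partner of Hells, was at 26.8, 36.1, 26.02, 27.8 and 26.8 CPM in WT 1 to 5 and 37.6, 34.3, 31.7 and 39.3 CPM in KO 1 to 4. WT 2 again sat among the KO libraries. Its log2 fold change was 0.32 (edgeR adjusted p = 0.102), with 0.41 without WT 2 (adjusted p = 0.0105) and 0.20 without KO 1 and KO 4 (adjusted p = 0.512). Its relative Cdca7l had 0.15 (adjusted p = 0.131), and 0.09 without KO 1 and KO 4. Uhrf2, the paralogue of Uhrf1, was level at 122 ± 3.42 and 120 ± 5.94 CPM (SD, n = 5 and 4; -0.02, adjusted p = 0.856), a gene named after its value was seen.

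Genes that act with the Tet enzymes, or supply their cofactors, gave no call. Of 14 demethylation and base excision genes 0 passed by edgeR, DESeq2 or limma-voom, 3 had an unadjusted p under 0.05 and the median was -0.04. Cxxc5, a zinc finger gene, was at 8.02 ± 0.969 CPM in WT and 6.09 ± 0.740 in KO (SD, n = 5 and 4; -0.40, edgeR adjusted p = 0.0982), and the repair polymerase gene Polb had 0.19 (adjusted p = 0.156). Of 12 genes of S-adenosylmethionine and 2-oxoglutarate metabolism 0 passed by any of these tools, 3 had an unadjusted p under 0.05 and the median was 0.011, with Ahcyl2 at -0.12 (edgeR adjusted p = 0.148, and -0.07 without KO 1 and KO 4) and Ahcyl1 at -0.10 (adjusted p = 0.178). Of 8 CXXC and histone lysine methylation genes 0 passed by edgeR or limma-voom and 1 by DESeq2, with 1 at an unadjusted p of 0.05 and a median of -0.05. Whsc1, a histone methyltransferase gene, was at 121 and 119 CPM in KO 1 and KO 4, at 87.5 and 89.5 CPM in KO 2 and KO 3 and at 77.5 to 92.5 CPM in WT. Its log2 fold change was 0.33 (edgeR adjusted p = 0.136), and 0.09 without KO 1 and KO 4 (adjusted p = 0.622). Setd2, another such gene, had -0.10 (adjusted p = 0.308), and -0.05 without them. Trdmt1, the transfer RNA methyltransferase related to the Dnmt enzymes, had -0.17 (adjusted p = 0.313), and -0.33 without KO 1 and KO 4 (adjusted p = 0.156).

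Genes whose expression is known to depend on DNA methylation were also read out. Of 16 germline genes that methylation keeps silent in somatic cells 10 were in the table, 8 of them with too few reads to be tested and at most 36 counts over all 9 libraries together. Stk31 had 0 counts, which allows up to 0.0206 CPM over all libraries. The tested ones, Brdt and Piwil2, were low, and neither passed (1 of them at an unadjusted p of 0.05) by edgeR, DESeq2 or limma-voom. Brdt was at 2.73 ± 0.266 CPM in WT and 1.94 ± 0.445 in KO (SD, n = 5 and 4; -0.49, edgeR adjusted p = 0.166). Piwil2 was at 1.78 ± 0.181 and 1.404 ± 0.124 CPM (-0.34, edgeR adjusted p = 0.298). For both genes WT and KO did not overlap, as for 9.07% of all tested genes. Brdt had 21 to 49 counts per library and Piwil2 19 to 33, and for Brdt WT 5 (2.38 CPM) and KO 1 (2.34 CPM) nearly met. These values refer to RNA, and methylation itself was not measured.

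Of 18 imprinted genes 17 were in the table and 8 were tested. By edgeR, DESeq2 and limma-voom 0 passed, 1 had an unadjusted p under 0.05 and the median was 0.0046. Igf2r had -0.13 (edgeR adjusted p = 0.177), and -0.07 without KO 1 and KO 4. Igf2 had 0.55 (adjusted p = 0.441) on 3 to 16 counts per library, and -0.02 without them. Among 6 Treg genes with known demethylated regions 0 passed by these tools, 1 had an unadjusted p under 0.05 and the median was -0.03. Il2ra, the interleukin-2 receptor alpha chain gene, had -0.18 (edgeR adjusted p = 0.146) and Tnfrsf18, encoding GITR, 0.14 (adjusted p = 0.301), which was -0.0057 without KO 1 and KO 4 and 0.07 without KO 1 alone.

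**Figure D5:**
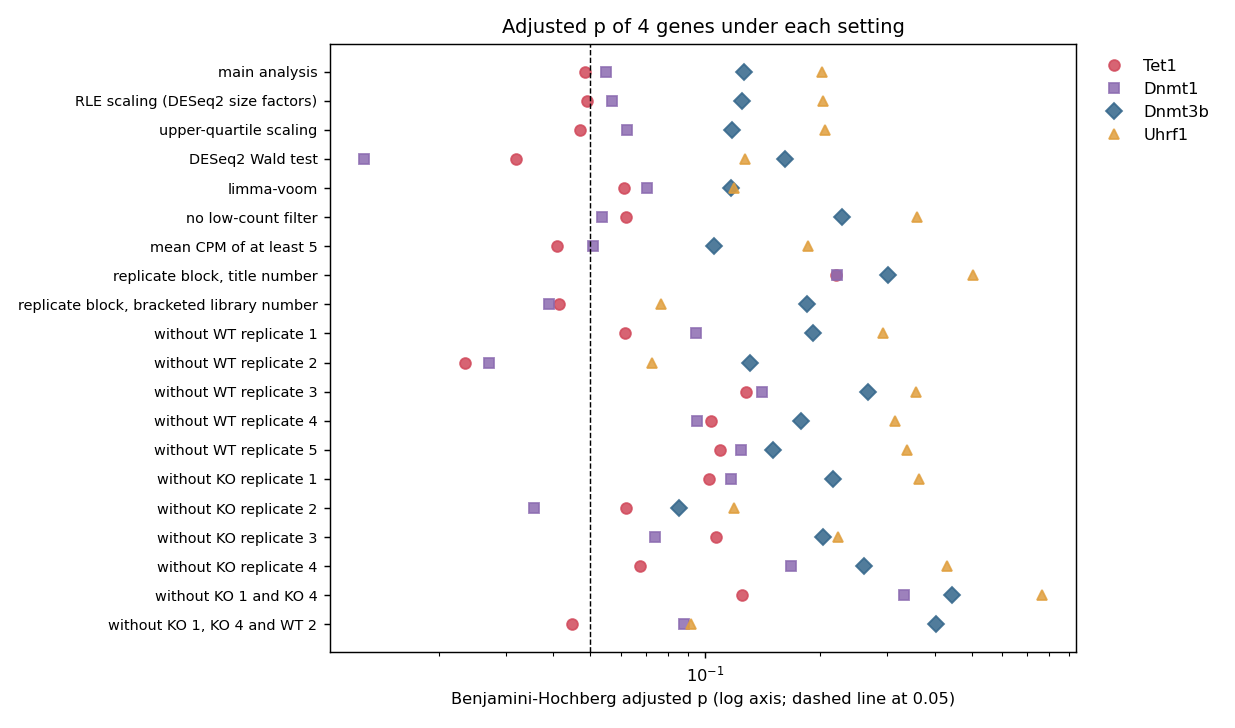
Benjamini-Hochberg adjusted p (log axis, dashed line at 0.05) of Tet1, Dnmt1, Dnmt3b and Uhrf1 under the main analysis and 19 other settings. Tet1 and Dnmt1 lie on either side of the line, at 0.0485 and 0.0551 in the main analysis, and cross it in several settings, while Dnmt3b and Uhrf1 lie to its right in every setting.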

How the data were processed

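Per the labels' protocols, total RNA of isolated Treg cells went into Illumina TruSeq Stranded library preparation. The authors deposited raw counts per gene symbol in 1 table, with 1 column per library. STAR 2.7, DESeq2 and the build mm10 appear in the submitters' processing notes, without roles. The counting program, its annotation and its strand setting, not given in the sources used here, are unknown.

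Libraries were grouped by their titles, and all 9 columns matched 1 sample each. The main test was the robust quasi-likelihood fit of edgeR 4.0.16 (R 4.3.3) with trimmed-mean (TMM) scaling and filterByExpr. Its p-values were adjusted over 12738 genes by Benjamini-Hochberg. Standard errors are the size of the log2 fold change over the square root of F. CPM are TMM-scaled, and log2 CPM used a prior count of 2. Relations across libraries were tested by exact permutation, two-sided. In a simulation of this comparison with 12615 genes, 18% of 50 genes changed 1.2-fold were recovered, as were 78% of 50 changed 1.5-fold. False calls made up 4.08%. The simulated counts were drawn for each gene independently, so shifts of a library shared by many genes were absent. Recovery and false calls in the real comparison may differ from these shares.

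Alternatives were other scalings and filters, DESeq2 1.42.0, limma-voom (limma 3.58.1), replicate blocks and leaving out libraries. The members and lists were chosen with earlier results of these data known, and 1 gene of the lists is not reported here, so list counts leave it out. Named genes are the 8 members, up to 4 called genes per list by smallest p or else the 2 with the smallest p, and the 2 genes most correlated with each member. Coordinates are from GENCODE M21 (mm10). The 95% intervals come from the fit and hold the spread between mice, while the floor of 3 counts covers counting error only.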

Additional observations from a re-analysis of the deposited data

Results flagged for a closer look

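The 68 sets of values tested (a gene or list level in WT or in KO) were not independent, since Mki67 and Top2a are also part of the mitosis level. Of the 68, 10 held a library far from the others of its group by Dixon's criterion. Chance gives about 1 in 20 for a single set, and no test compared these shares. WT 2 accounted for 5 of the 10, all of proliferation or maintenance genes: Mki67 was at 174 CPM there against 77.4 to 102 in the other WT libraries, Top2a at 123 CPM against 56.0 to 71.0, Cdca7 at 36.1 CPM against 26.02 to 27.8, the S phase level at 5.46 against 4.83 to 5.00 and the mitosis level at 4.54 against 3.18 to 3.53 (mean log2 CPM). In KO 2, Dnmt3b was at 14.9 CPM against 13.3 to 13.6 in the other KO libraries, and Piwil2 at 1.22 CPM against 1.44 to 1.48. In WT 1, Setd2 was at 265 CPM against 220 to 230 in the other WT libraries. In KO 4, Zbtb4 was at 131 CPM against 144 to 146 in the other KO libraries, and Xist was at 1.66 CPM against 1756 to 2034 in the other KO libraries.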

How the results depend on the processing

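The count of all genes past the threshold (418) was 910 by DESeq2, 26 with a replicate block on the title number, 118 without KO 1 and KO 4, 243 without KO 1, KO 4 and WT 2 (chosen after seeing the data) and 97 to 697 when a single library was left out. Of the 8 members, 1 passed. That count was 2 by DESeq2 and with a replicate block on the bracketed library number, 0 by limma-voom, without the low-count filter, with a replicate block on the title number and without KO 1 and KO 4, and 0 to 2 without a single library. Of the 105 wider genes, 0 passed, and the count was 7 by DESeq2, 1 without the low-count filter, 2 at a mean CPM of at least 5, 11 with a replicate block on the bracketed number, 4 without KO 1, KO 4 and WT 2, and 0 to 8 without a single library. The cause was not tested.

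The replicate numbers share only a label. Deviations of same-numbered libraries correlated at -0.11 to 0.246 by the title number and at -0.143 to 0.0193 by the bracketed number over 500 genes. By the title number only WT 2 and KO 2 correlated best with their own number. By the bracketed number no library did. With a replicate block on the title number Tet1 had a log2 fold change of -0.23 (edgeR adjusted p = 0.22), and on the bracketed number -0.28 (adjusted p = 0.0414). Tet1, Dnmt1, Dnmt3b, Uhrf1 and Mbd2 kept their sign in all 19 alternatives. Dnmt3a turned in 2, Tet2 in 1 and Tet3 in 1, none of them past the threshold. The 4 relations of Uhrf1 and Dnmt1 to proliferation genes had r of 0.826 to 0.997 over all alternatives. At this depth and with 9 mice, the simulation, which drew each gene independently, recovered few changes of 1.2-fold, the size seen for Tet1.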
